A study of Drosophila melanogaster with 3 samples.

Results

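The 48 genes described here encode the subunits of the Drosophila melanogaster proteasome and their close paralogs, among 13945 protein-coding genes on the 6 chromosomes that held peaks. They were chosen by symbol alone, as protein-coding genes whose name begins with Rpn or Rpt followed by a digit, or with Prosalpha or Prosbeta. Of them, 23 belong to the regulatory particle (Rpn and Rpt) and 25 to the core particle (Prosalpha and Prosbeta). In 16 the name ends in T or R, with or without a further digit, which marks a paralog of a subunit. These comprise 5 regulatory genes (Rpn12R, Rpn13R, Rpt3R, Rpt4R and Rpt6R) and 11 core genes (Prosalpha1R, Prosalpha3T, Prosalpha4T1, Prosalpha4T2, Prosalpha6T, Prosbeta2R1, Prosbeta2R2, Prosbeta4R1, Prosbeta4R2, Prosbeta5R1 and Prosbeta5R2). The other 32 genes are 18 regulatory and 14 core subunits.

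The measurements are peak lists from chromatin immunoprecipitation followed by sequencing (ChIP-seq), which recovers the DNA that a protein occupies. The protein was Dip3, the product of the gene Dlip3, a MADF and BESS domain protein known as a partner of the Rel-family factor Dorsal. Per the labels, there was 1 group: whole embryos of both sexes, aged 0 to 24 h, of 1 transgenic line that carries Dip3 with GFP at its C-terminus, precipitated with an antibody against GFP and given in 3 biological replicates. All 3 replicates carry the tag, the promoter that drives the fusion protein is not given in the sources used here, and no other condition was analysed here. The embryos mix all tissues, and peak lists hold no expression values, so binding in few cells and weak binding in many cells cannot be told apart.

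The proteasome degrades proteins that carry ubiquitin chains. Its core particle is a barrel of stacked rings, with outer rings of alpha subunits that gate the entrance and inner rings of beta subunits, among which Prosbeta1, Prosbeta2 and Prosbeta5 carry the cutting sites. The regulatory particle caps the barrel: its lid (here Rpn3, Rpn5, Rpn6, Rpn7, Rpn8, Rpn9, Rpn11 and Rpn12, with Sem1 outside the members) removes the ubiquitin chain, and its base (the ATPases Rpt1 to Rpt6 with Rpn1, Rpn2 and Rpn13) unfolds the substrate and threads it into the core. Drosophila has extra copies of many subunits, and several of them are known as male germline forms that replace the standard subunit during sperm formation.

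The sequences under the peaks are shown for the 6 bound members with the strongest signal among those whose sequence could be printed, because they are the places where Dip3 was recovered. Each window was centred on the peak summit, is written 5′ to 3′ on the gene's strand from Release 6 of the genome (dm6, RefSeq) and was shortened where it would hold more than 30 exon bases. Capitals mark matches on either strand to TATCGATA (the DNA replication-related element, DRE), to CGATA (the core of the site of the insulator protein BEAF-32, which also lies within the DRE) or to TATAAA (the TATA box). The Rpn5 window is chr3R:5789215-5789315 on the plus strand, at −278 to −178 bp from the start. The Rpn3 window is chr2L:19051740-19051819 on the plus strand and spans the start. The Rpt5 window is chr3R:23752805-23752875 on the plus strand and ends 1 base before the start. The Rpn2 window is chr3R:29153369-29153469 on the plus strand. The Rpn11 window is chr2L:5059950-5060050 on the minus strand. The Rpn10 window is chr3L:21536983-21537029 on the plus strand, and its summit lies just past the last base printed.
Rpn5: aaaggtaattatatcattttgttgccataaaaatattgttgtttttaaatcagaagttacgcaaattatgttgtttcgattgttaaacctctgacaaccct
Rpn3: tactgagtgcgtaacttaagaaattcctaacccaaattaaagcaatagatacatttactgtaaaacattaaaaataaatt
Rpt5: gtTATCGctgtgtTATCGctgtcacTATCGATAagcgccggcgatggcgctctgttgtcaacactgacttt
Rpn2: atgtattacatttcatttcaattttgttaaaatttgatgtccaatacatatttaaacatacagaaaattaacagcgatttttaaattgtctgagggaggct
Rpn11: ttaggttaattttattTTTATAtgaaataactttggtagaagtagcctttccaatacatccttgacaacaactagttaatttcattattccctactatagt
Rpn10: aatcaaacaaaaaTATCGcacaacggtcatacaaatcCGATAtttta
The Rpt5 window holds a DRE and further CGATA matches, the Rpn10 window holds CGATA on each strand, and the windows of Rpn5, Rpn3 and Rpn2 hold none of these letters. The windows of Rpn6, Rpn8, Rpn13, Prosbeta1 and Prosalpha5 are not printed, so those shown do not stand for all 11 bound members. Over all 11, in windows that were not shortened, the DRE was in 3 and CGATA in 6.

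Dip3 peaks lay at the starts of 11 of the 48 members, all of them standard subunits and 9 of them in the regulatory particle. A gene is called bound here when the summit of a peak of the thresholded set lies within 500 bp of any of its annotated starts. That set holds 3741 peaks kept by the irreproducible discovery rate (IDR), which scores whether a region takes a similar rank in separate replicates. Of these peaks, 3740 were covered by the strongest regions of the list called on the pooled replicates. A bound call therefore need not mean a similar rank in each replicate, as the ranks given below show. The 11 bound members are 22.9% of the 48 (95% Clopper-Pearson interval 12 to 37.3%), and 20.3% of all protein-coding genes were bound (2834 of 13945). The members as a whole therefore stood near the background, and the bound genes were unevenly spread among their kinds. None of the 16 suffixed paralogs was bound (upper bound 20.6%), against 11 of the 32 other members (34.4%, 18.6 to 53.2%). In the regulatory particle 9 of 23 genes were bound (39.1%, 19.7 to 61.5%), against 2 of 25 in the core particle (8%, 0.984 to 26.0%). Among standard subunits alone the counts were 9 of 18 regulatory genes and 2 of 14 core genes. Intervals cover counting error over genes only, these intervals overlap, and neither contrast was tested, because genes are not replicates and the groups were chosen with earlier results of these data known.

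Within the regulatory particle 8 of the 9 bound genes were Rpn genes. Of the 12 standard Rpn genes 8 were bound, against 1 of the 6 Rpt genes. The lid had 5 of 8 bound genes (62.5%, 24.5 to 91.5%), the base had 3 of 9 (33.3%, 7.49 to 70.1%), and Rpn10 at their interface was bound. Sem1, a further lid gene that the choice by symbol leaves out, was not bound. These contrasts were not tested, and their counts moved when a replicate was left out. When an IDR peak had to overlap the 3741 strongest regions of each of the other 2 replicates, 7, 3 and 4 of the 12 Rpn genes stayed bound without replicates 1, 2 and 3, against 1 of the 6 Rpt genes each time. The lid then had 4, 2 and 3 of 8 bound genes and the base 3, 2 and 2 of 9. Within 200 bp of a start the lid and the base each had 3 bound genes. In the core, 1 of 7 standard alpha genes and 1 of 7 standard beta genes were bound. The strengths below are the authors' signal values, which have no common scale between the replicate lists. Each is therefore given with its rank in its own list, where 1 is the strongest region. In the IDR set and in the list called on the pooled replicates, the bound members had the same signals and ranks. Each replicate has its own list of 30000 regions, called a relaxed list because it includes background by design, and its strongest 3741 regions form its top list.

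Rpn5, a scaffold subunit of the lid, carried the strongest peak of the family (3R, 5789070 to 5789459). Its signal of 354 ranked 356 in the IDR set, and it ranked 247, 315 and 671 in replicates 1, 2 and 3, with signals of 159, 113 and 92.5 in those lists. All 3 replicates placed Rpn5 among their strongest regions. The summit lay 228 bp upstream of the start, inside an intron of Hat1, which encodes a histone acetyltransferase and is transcribed the other way. Rpn3, another lid scaffold subunit, had a signal of 269 and rank 647 (2L, 19051595 to 19051984) with its summit exactly on the start, and it ranked 790, 624 and 760 in the 3 replicates. Its ranks were the closest together among the 7 bound members that all 3 replicates listed.

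The remaining lid genes were weaker and less even between replicates. Rpn6, which clamps the lid onto the core, had a signal of 154 and ranked 1674 (2R, 14752179 to 14752568), with ranks of 4252, 1279 and 1063 in replicates 1, 2 and 3. The peak was 103 bp upstream of a second start of Rpn6, 639 bp downstream of the first. Rpn8, the partner of the deubiquitinase, had a signal of 126 and ranked 2182 (2R, 24402645 to 24403034). Its ranks were 3070 and 1607 in replicates 1 and 2 and 10618 in replicate 3, outside that replicate's top list. This summit also belonged to a downstream start, which lies 2977 bp past the first. Rpn11, the deubiquitinase that removes the chain, had a signal of 115 and ranked 2457 (2L, 5059805 to 5060194). Replicates 2 and 3 ranked it 2037 and 3198, and replicate 1 did not list it.

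The bound base genes were Rpt5, Rpn2 and Rpn13. Rpt5, one of the ATPases, had a signal of 190 and ranked 1161 (3R, 23752643 to 23753032), with ranks of 1666, 1197 and 883 in the 3 replicates. Rpn2, a large scaffold of the base, had a signal of 133 and ranked 2036 (3R, 29153224 to 29153613), with ranks of 2109, 3614 and 2149. Both were in the top list of every replicate. Rpn13, a ubiquitin receptor, had a signal of 117 and ranked 2411 (2R, 13960288 to 13960677). Rpn10, also a ubiquitin receptor, had the weakest peak of the family and ranked 2965 (3L, 21536838 to 21537227). Replicates 2 and 3 gave Rpn13 ranks of 2108 and 2589 and gave Rpn10 ranks of 2870 and 2418. Neither Rpn13 nor Rpn10 was listed by replicate 1.

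The bound core genes were Prosbeta1, which carries the caspase-like site, and Prosalpha5, an alpha ring subunit. Prosbeta1 had a signal of 121 and ranked 2296 (2R, 16014679 to 16015068). It was not listed by replicate 1 and ranked 4970 in replicate 2 and 1644 in replicate 3. Prosalpha5 had a signal of 116 and ranked 2435 (2R, 17412568 to 17412957), with ranks of 12885, 4361 and 1464. Both core genes were thus in the top list of replicate 3 alone. Replicate 3 also had the most regions with a q value of at most 0.01, with 8812, against 2480 in replicate 1 and 3226 in replicate 2. The part of this difference between replicates in the core counts was not tested.

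**Figure D1:**
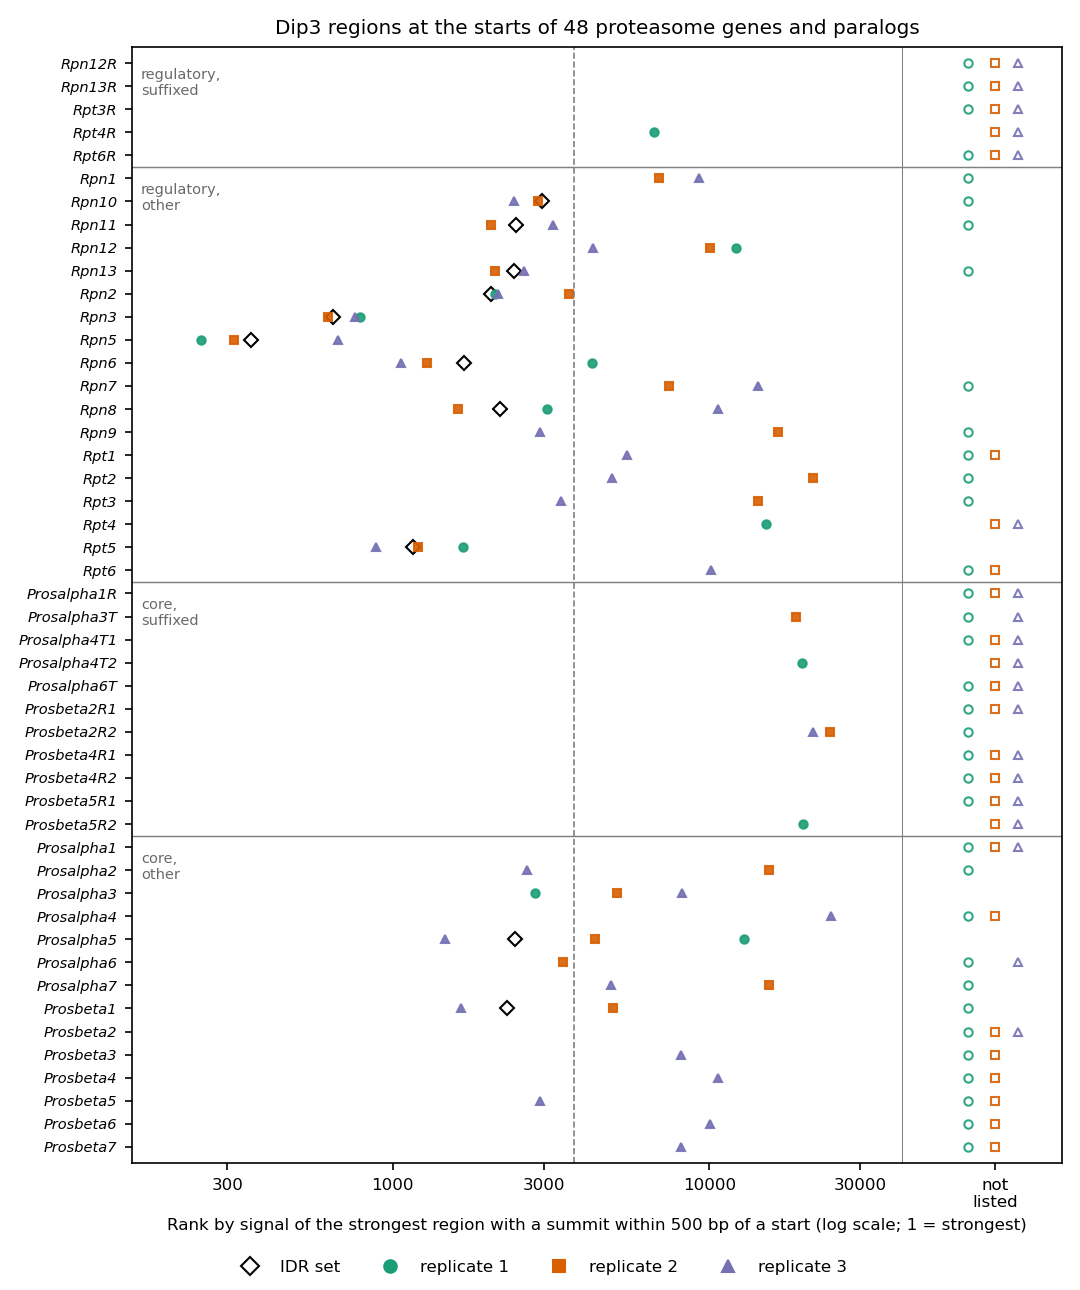
Rank by signal of the strongest region within 500 bp of a start, on a log scale where 1 is strongest, for each of the 48 members in the IDR set and in replicates 1, 2 and 3. Open symbols at the right mark members that a replicate did not list, and the dashed line marks rank 3741. Rpn5, Rpn3, Rpt5 and Rpn2 are left of the line in all 3 replicates, and no suffixed paralog is left of it in any.

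Of the 11 bound members, 4 (Rpn5, Rpn3, Rpt5 and Rpn2) were in the top list of all 3 replicates and 7 were in all 3 relaxed lists. The top lists of replicates 1, 2 and 3 held 5, 9 and 10 of them. Their median signal was 126, against 158 over all bound genes, and 4 of the 11 exceeded the median of the IDR set (141). When an IDR peak was kept only if it overlapped the top lists of the other 2 replicates, 8, 4 and 5 members stayed bound without replicates 1, 2 and 3. In the same step 14.5%, 13.6% and 14.7% of all protein-coding genes stayed bound. The regulatory particle kept 8, 4 and 5 genes. Both bound core genes were in the top list of replicate 3 alone, so the core particle kept none without any of the replicates. The suffixed paralogs stayed at 0, which this step could not raise.

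The same groups were counted in each replicate's own top list. Suffixed paralogs were in no top list. The other 32 members had 18.8%, 31.2% and 43.8% in the top lists of replicates 1, 2 and 3 (mean 31.2% ± 12.5, SD, n = 3), and all protein-coding genes had 17.6%, 19.0% and 21.2% (mean 19.3% ± 1.81). In replicate 1 the other members therefore stood near the background. The regulatory particle had 21.7%, 39.1% and 43.5% (34.8% ± 11.5), against 4%, 4% and 16% for the core particle (8% ± 6.93). The regulatory share was above the core share in all 3 replicates, and the ranges did not overlap. Among standard subunits alone, the regulatory genes had 27.8%, 50% and 55.6%, against 7.14%, 7.14% and 28.6% for the core genes. Regulatory genes were again higher in each replicate, but these ranges overlapped, since replicate 1 of the regulatory genes lay below replicate 3 of the core genes. Over all 48 members the share was 12.5%, 20.8% and 29.2% (20.8% ± 8.33), on both sides of the background.

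**Figure D2:**
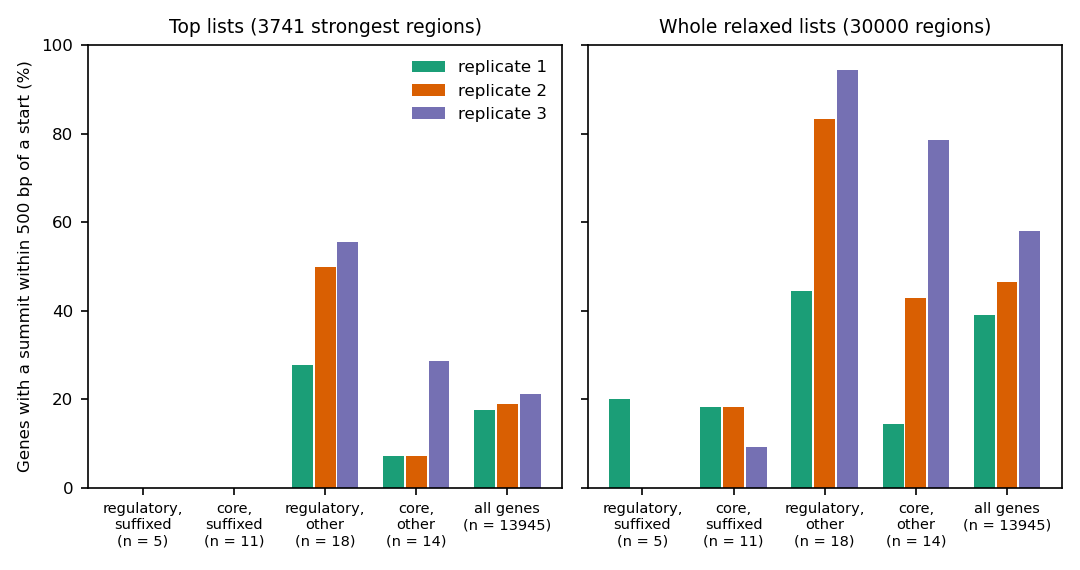
Share of genes (%) with a summit within 500 bp of a start in the top list (left) and in the whole relaxed list (right) of each replicate, by kind of member and over all protein-coding genes. In the top lists the standard regulatory genes are above the standard core genes in every replicate and both suffixed kinds are at 0.

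The paralogs were also rare in the relaxed lists, where weak regions are kept. The suffixed paralogs had 3, 2 and 1 of 16 genes listed in replicates 1, 2 and 3 (18.8%, 12.5% and 6.25%, mean 12.5% ± 6.25, SD, n = 3). The other members had 10, 21 and 28 of 32 (31.2%, 65.6% and 87.5%, mean 61.5% ± 28.4), and 39.0%, 46.6% and 58.1% of all protein-coding genes were listed (mean 47.9% ± 9.61). The suffixed paralogs were thus below all genes in each replicate. The other members were below all genes in replicate 1 and above them in replicates 2 and 3. In the relaxed list called on the pooled replicates, with 23524 regions, 0 of 16 suffixed paralogs, 24 of 32 other members (75.0%) and 47.8% of all protein-coding genes had a summit near a start.

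The listed paralogs were each weak and mostly seen once. Rpt4R, a paralog of an ATPase, ranked 6694 in replicate 1. Prosalpha4T2, a paralog of an alpha subunit, ranked 19597 in replicate 1, and Prosbeta5R2, a paralog of a catalytic beta subunit, ranked 19760 there. Prosalpha3T ranked 18784 in replicate 2. Prosbeta2R2, a paralog of another catalytic subunit, was the exception with a place in 2 lists, ranking 24038 in replicate 2 and 21238 in replicate 3, at summits 347 bp apart. The remaining 11 were in no list, namely Rpn12R, Rpn13R, Rpt3R, Rpt6R, Prosalpha1R, Prosalpha4T1, Prosalpha6T, Prosbeta2R1, Prosbeta4R1, Prosbeta4R2 and Prosbeta5R1. Of the other members only Prosalpha1 and Prosbeta2 were in none, and both are named here after their values were seen.

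The absence of Prosalpha1 and Prosalpha1R could not be read from these lists. Every 50-base stretch within 500 bp of either start (952 of 952 for each gene) occurs more than once in the genome. For Rpn3 the share was 6.05%, for Prosalpha3 it was 3.26%, and for the remaining 44 members it was 0. How the authors placed reads with several matches is not given in the sources used here. Without this pair, an alternative chosen after seeing the data, the counts were 0 of 15 suffixed paralogs, 11 of 31 other members and 2 of 23 core genes.

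The IDR set, whose weakest peak had a signal of 85.1, left out members with weaker regions in the pooled list. The nearest to it was Prosalpha3. This gene, which encodes an alpha ring subunit, ranked 4162 in the pooled list with a signal of 77.9, and was in the top list of replicate 1 alone at rank 2804. It was the only unbound member with a pooled q value (0.00300) under 0.01. Rpt3, an ATPase, followed at rank 4807 (signal 69.7). The lid genes Rpn9 and Rpn12 were at ranks 5270 and 5383 (64.8 and 63.7). The alpha genes Prosalpha2 and Prosalpha6 were at ranks 5870 and 8437 (59.9 and 45.9). Rpt3, Rpn9 and Prosalpha2 were in the top list of replicate 3 alone, Prosalpha6 was in that of replicate 2 alone, and Rpn12 was in none. All 12 standard Rpn genes had a summit near a start in the pooled relaxed list. In that list stood 16 of the 18 standard regulatory genes (88.9%) and 8 of the 14 standard core genes (57.1%, 28.9 to 82.3%), beside 47.8% of all protein-coding genes. The core share was thus near the background.

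Bound members had their summits close to and mostly upstream of the start. The median position was −87.0 bp, with a range of −228 to 33 bp, against a median of −120 bp over all bound genes. Of the 11 summits, 9 lay upstream, and 89.3% of all bound genes had theirs upstream. The exceptions were Rpn3, whose summit is the start itself, and Rpn10, at 33 bp downstream in its 5′ UTR. Replicates located the summits unequally well. Those of Prosalpha5 fell within 11 bp of one another and those of Rpt5 within 19 bp, while those of Rpn2 were up to 116 bp apart. Within 200 bp of a start the count of bound members was 9, since Rpn5 and Rpn11 lay further out, and within 1000 bp it was still 11.

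**Figure D3:**
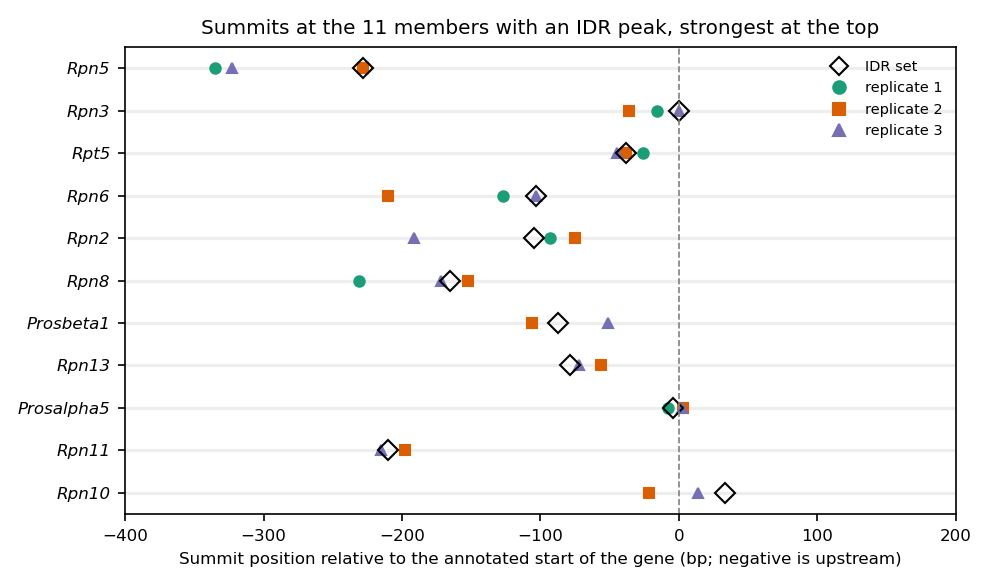
Summit position relative to the annotated start (bp, negative is upstream) at the 11 bound members, strongest at the top, in the IDR set and in each replicate that listed a region. The IDR summits run from −228 bp at Rpn5 to 33 bp at Rpn10.

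At 8 of the 11 bound members the summit was also within 500 bp of the start of another protein-coding gene, each time on the opposite strand, so the peaks could not be assigned to 1 gene. The neighbour was nearer at 4 of them. RanBP3, a nuclear export cofactor, started 4 bp from the summit and Rpt5 38 bp. Rrp42, a subunit of the RNA exosome, started 34 bp away and Prosbeta1 87 bp. Hat1 started 119 bp away and Rpn5 228 bp. Slik, a kinase gene, started 160 bp away and Rpn8 165 bp. At the other 4 the member was nearer, beside CtsL1 (with Rpn13), Slbp, which encodes the histone mRNA stem-loop binding protein (with Rpn2), l(2)37Bb (with Rpn3) and ave (with Rpn6). Only Prosalpha5, Rpn10 and Rpn11 had no other coding start in reach.

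Suffixed paralogs and the other members differed in gene arrangement. Neighbours were sought as coding starts on the opposite strand within 500 bp upstream of a gene's most upstream start. Such a neighbour was present at 2 of 16 suffixed paralogs (12.5%), at 18 of 32 other members (56.2%) and at 26.4% of all protein-coding genes. Over all genes, 41.9% of those with such a neighbour were bound and 12.6% of those without. Among the other members 6 of the 18 with a neighbour were bound, against 5 of the 14 without. Those 5 include Rpn6 and Rpn8, whose peaks lay at downstream starts beside the opposite starts of ave and Slik. The 2 counts therefore depend on which start is used. Among the suffixed paralogs 0 of 2 with a neighbour and 0 of 14 without were bound. Genes with a single exon made up 6 of 16 suffixed paralogs (37.5%), 4 of 32 other members (12.5%) and 15.2% of all genes, and 3 of the 4 T-suffixed genes had a single exon. The part of this arrangement in the difference in binding was not tested.

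The promoters of suffixed paralogs and of the other members were also compared in their sequence, as a description with no test. The promoter was taken as the 250 bases before and 50 after the most upstream start, and motifs were searched on both strands. For the bound genes Rpn6 and Rpn8 this window lies away from the peak, which was at a downstream start. The DRE, TATCGATA, is the site of DREF, a factor of genes for growth and replication. It was present in 0 of 16 suffixed paralogs, 12 of 32 other members (37.5%), 15.2% of all bound genes and 9.36% of all protein-coding genes. Bound and unbound members both had it: it was in 5 of 11 bound members (45.5%) and 7 of 21 unbound other members (33.3%), and in 6 of 18 standard regulatory and 6 of 14 standard core genes. CGATA, which every DRE contains, was in 8 of 16 suffixed paralogs, 27 of 32 other members (84.4%) and 47.4% of all genes. The median GC content was 32.7% for suffixed paralogs, 33.5% for other members and 38.0% for all genes.

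Promoters of paralogs without a peak are set beside those of their standard counterparts, also without an IDR peak, to show this contrast. The pairs were chosen after their values were seen and do not stand for the whole family. Both standard genes shown hold a DRE, as 12 of the 32 other members do. Prosbeta2R2, the other paralog of Prosbeta2, has no DRE but 3 CGATA matches in its promoter. Each line gives the 100 bases before the start on the gene's strand, which is plus in each case, from dm6 (RefSeq), with DRE and CGATA matches in capitals. The windows are chr2L:13231939-13232038 for Prosalpha6T, chr2L:10221251-10221350 for Prosalpha6, chrX:5808854-5808953 for Prosbeta2R1 and chr3L:14999851-14999950 for Prosbeta2.
Prosalpha6T: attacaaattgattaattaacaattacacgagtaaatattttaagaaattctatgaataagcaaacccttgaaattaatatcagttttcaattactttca
Prosalpha6: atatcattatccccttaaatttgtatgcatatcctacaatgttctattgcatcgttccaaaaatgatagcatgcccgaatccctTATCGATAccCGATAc
Prosbeta2R1: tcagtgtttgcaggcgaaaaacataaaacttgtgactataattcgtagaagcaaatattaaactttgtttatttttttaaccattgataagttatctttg
Prosbeta2: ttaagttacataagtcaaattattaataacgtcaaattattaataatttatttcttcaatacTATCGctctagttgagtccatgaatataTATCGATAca
The DRE begins 16 bases before the start of Prosalpha6 and 10 bases before that of Prosbeta2, and neither window of a paralog holds it. Prosbeta2, the subunit with the trypsin-like site, was listed by no replicate, and its promoter holds a DRE.

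The other elements were less unevenly spread. The TATA box, TATAAA, was in 5 of 16 suffixed paralogs, 13 of 32 other members and 45.8% of all genes. The Cap-n-collar element TGACNNNGC, the site of the factor that activates proteasome genes under proteasome stress, was in 1 of 16 suffixed paralogs, 5 of 32 other members and 8.63% of all genes, and in 0 of the 11 bound members. Ohler motif 1 was in 0 of 16, 4 of 32 and 4.50%, Ohler motif 6 in 2 of 16, 2 of 32 and 2.23%, and Ohler motif 7 in 1 of 16, 5 of 32 and 9.29%. No member had the E-box CACGTG, which 4.20% of all promoters hold. In windows of 50 bases to either side of the IDR summits, the DRE was in 3 of 11 bound members (Prosalpha5, Prosbeta1 and Rpt5), against 4.75% of the 2147 promoter peaks. CGATA was in 6 of 11, against 26.7%. The median GC content of these windows was 29.7% at bound members and 36.6% at promoter peaks.

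**Figure D4:**
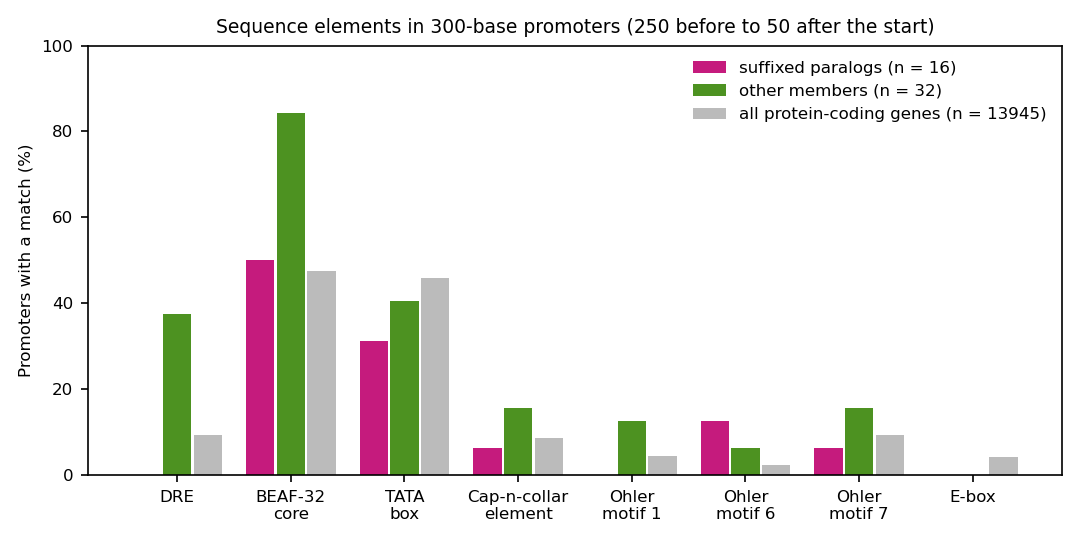
Share of promoters (%, 250 bases before to 50 after the most upstream start) with a match to each element in suffixed paralogs, other members and all protein-coding genes. The DRE is at 0 in suffixed paralogs, 37.5% in other members and 9.36% in all genes.

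Peaks were also counted at genes that work with the proteasome. Of a list of 50 such genes, 27 were bound (54%, 39.3 to 68.2%), against 20.3% of all protein-coding genes. In the top lists of replicates 1, 2 and 3 the share was 42.0%, 42.0% and 56.0% (46.7% ± 8.08, SD, n = 3). Opposite starts within 500 bp upstream of the most upstream start were present at 22 of the 50 genes (44.0%). Roles are given as assigned in the compiled list. In its class of assembly factors and activators, which also holds the lid gene Sem1, 5 of 9 genes were bound. Bound as well were 3 of 5 genes for ubiquitin and its activating enzyme and 7 of 13 ubiquitin-conjugating enzymes. Also bound were 6 of 10 receptors and segregase factors and 2 of 6 deubiquitinases. In a class put together as regulators of proteasome genes 4 of 7 were bound. That class includes the ligase gene Hrd3, which is 1 of the 4. The difference between this list and the proteasome genes was not tested, and the list was compiled with earlier results of these data known.

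The strongest of them was Hrd3 (signal 848, rank 53), part of a ubiquitin ligase of the endoplasmic reticulum, whose gene abuts that of Rpt5 at 23754623 on 3R. It ranked 46, 43 and 69 in replicates 1, 2 and 3. Next came CG8892 (668), CG2811 (436) and Faf2 (295), an adaptor of the segregase in the same degradation pathway. The ubiquitin-conjugating enzyme genes ben and Ubc6 had signals of 235 and 202. CG12321 had 229, RpS27A, which encodes ubiquitin fused to a ribosomal protein, had 190, and CG9588 had 183. By signal, Rpn5 (354) stood between CG2811 and Faf2, and Rpn3 (269) between Faf2 and ben. Chosen after their values were seen, the activator of proteasome genes cnc (169), its inhibitor Keap1 (173) and the proteasome maturation factor Pomp (170) were bound, and maf-S, the partner of cnc, was not.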

How the data were processed

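ChIP-seq of Dip3-GFP in 3 biological replicates of 1 group was analysed from the deposited dm6 peak lists. Per the file headers, the authors called regions on each replicate and on the pooled replicates, each with 1 further file shared by all lists, and made the IDR set from these lists. The deposited signal values are the authors' caller's, on a scale of its own in each replicate list, and served only to rank and filter within a list. The deposited −log10 q values were converted to q values. The aligner, the caller, both versions and the cutoff of the IDR step were not given in the sources used here. Without read counts, depth is unknown. The dm3 lists, signal tracks and control were not used here.

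Starts came from Ensembl release 115 (BDGP6 patch 54) and sequence from Release 6. Summits within 500 bp of a start were counted in Python 3.11.15 with numpy 2.4.6, with Clopper-Pearson 95% intervals from scipy 1.17.1, and the figures were drawn with matplotlib 3.10.9. Counting was tested on simulated peaks. Members, lists and tests were chosen with earlier results of these data known, so no p-value is given. The text names every bound member, every suffixed paralog, the 6 unbound members ranked best in the pooled list and the 10 bound pathway genes with the highest signal, of which 1 is not reported here. Of 65 pathway names, 9 found no match, and synonyms of one gene were merged, which left 50 genes. Alternatives were other windows, the most upstream start, stricter peak sets, peaks that cover a start, each replicate left out and each replicate's own top list.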

Additional observations from a re-analysis of the deposited data

How the results depend on the processing

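The count of 0 bound suffixed paralogs stayed at 0 under every alternative run. Most alternatives drop peaks, starts or genes or shorten the window, so they could not have raised it. The window of 1000 bp and each replicate's own top list could have, and gave 0 as well. With only the upper 50% of IDR peaks by signal, the counts fell to 4 members, 4 regulatory genes, 0 core genes, 4 other members, 16 pathway genes and 1632 of all protein-coding genes, and bound members had a median position of −70.5 bp and a median signal of 230. The top list of replicate 1 held 6 members, 5 regulatory genes, 1 core gene and 6 other members, that of replicate 2 held 1 core gene and that of replicate 3 held 4. Requiring the peak to cover a start left 1842 of all genes and 9 members. Leaving out 1 replicate gave 4 to 8 members, 4 to 8 regulatory genes, 0 core genes, 4 to 8 other members, a median position of −105 to −71.5 bp and a median signal of 143 to 230, with the lowest counts without replicate 2. It also lowered the pathway genes to 18, against 27 with all replicates, and all genes to 1897 to 2045, against 2834, and gave a mean share of members in the top lists of 16.7 to 25%. The cause of these shifts was not tested, beyond the fewer peaks that each stricter set holds. In 300-base promoters in place of summit windows, bound members with a match went to 5 for the DRE, 10 for CGATA and 4 for the TATA box, against 3, 6 and 2 at summits. The other 76 recomputed values kept within 1.5 times the value reported or within the spread over replicates, among them windows of 200 and 1000 bp and the most upstream start. No paired analysis was possible because there is 1 group. With no depth, no untagged embryos and 1 transgenic line, weak peaks and the core counts rest on few regions, and reads of up to 50 bases near the starts of Prosalpha1 and Prosalpha1R have more than 1 match.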
